A study of Mus musculus with 10 samples.

Results

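A set of 10 genes of tryptophan breakdown, the kynurenine pathway and the aryl hydrocarbon receptor (AhR) were followed in tumour-associated macrophages from mice given vehicle or the glutamine antagonist JHU083. They were chosen by gene symbol, and all were found among the 46957 loci of each sample's table. The tumours were 4T1 cells, a mouse breast cancer line, of which 100000 were placed in the mammary fat pad of each BALB/cJ mouse. Live cells that were CD45+, CD11b+ and F4/80+ and lacked CD8, Ly6C and Ly6G were sorted on day 14. The vehicle group (5 samples) received PBS, and the JHU083 group (5 samples) received 1 mg/kg on days 7 to 13. JHU083 releases 6-diazo-5-oxo-L-norleucine in the body, an antagonist of glutamine. The labels do not say that each sample is 1 mouse, so p-values measure the spread between these samples.

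Most tryptophan is broken down along the kynurenine pathway. The dioxygenases encoded by Ido1, Ido2 and Tdo2 open the ring, the formamidase Afmid releases kynurenine, and Kmo, Kynu, Haao and Qprt carry it on towards NAD. Il4i1 encodes a secreted amino acid oxidase that also uses tryptophan. Kynurenine and other tryptophan products can bind AhR, a transcription factor that pairs with Arnt in the nucleus and switches on xenobiotic-response genes, among them its own inhibitors Ahrr and Tiparp. In tumours this axis is known for restraining T cells, and macrophages and dendritic cells are among the cells that can run it.

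In these macrophages the dioxygenase genes were at or near 0 in both groups, while Ahr, Tiparp and Kynu were expressed in every sample and rose with JHU083. Tiparp rose 1.44-fold, Kynu 1.34-fold and Ahr 1.30-fold. The locus shared by Il4i1 and Nup62 fell by 0.22 on the log2 scale. Kmo, the locus that holds Afmid, and Ahrr did not pass the test, and Ido1, Ido2 and Qprt were too low to compare. Of the 7 genes that could be tested, 3 were thus higher and 1 was lower at an adjusted p under 0.05 (edgeR, adjusted over all loci tested). In 10 fits leaving out 1 sample each, the Ahr call was lost in 6 and that of the Il4i1 and Nup62 locus in 8. The Tiparp and Kynu calls held in all. Among all 12501 loci tested, 18.4% were higher and 18.3% lower, or 36.7% in either direction. With scaling by library size alone the split moved to 12.5% higher and 25.1% lower, and the set then had 2 genes higher and 3 lower. The median log2 fold change was 0.21 over the 7 genes and 0.01 over all loci.

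The libraries held 11147870 to 15740701 fragments. The defining macrophage genes were abundant in every sample, with a summed level of 30805 to 41148 CPM (fragments scaled to library size) in vehicle and 48472 to 68525 CPM in JHU083, and 5 of these 10 genes were higher in JHU083. Most of that rise in the sum came from Apoe, with means of 21462 and 38243 CPM, while C1qa, C1qb, C1qc, Cd68 and Fcgr1 did not pass the test. Of 8 tumour epithelial markers none was at 0 in all samples and 8 were lower in JHU083; their summed level was 297 to 649 CPM in vehicle and 104 to 219 CPM in JHU083. The 12 dendritic cell markers summed to 55.3 to 83.7 CPM and 50.9 to 101 CPM; 10 of them could be tested, 3 were higher and 1 lower, and none was at 0 in all samples. Of 5 fibroblast markers 3 were lower and 0 higher, with sums of 72.9 to 165 CPM in vehicle and 17.3 to 81.3 CPM in JHU083. The endothelial markers summed to 122 to 210 CPM and 34.0 to 82.3 CPM, nearly all of it Pecam1 (means of 151 and 52.5 CPM), which was lower (-1.52 on the log2 scale); Cdh5 (-0.49, edgeR adjusted p = 0.176) and Kdr (-0.15, edgeR adjusted p = 0.362) did not pass. The neutrophil markers summed to 97.2 to 109 CPM and 98.2 to 151 CPM; of 6 tested, S100a8 and S100a9 were lower (-1.40 and -2.18) and Csf3r was higher (0.53). The T and NK cell markers summed to 14.4 to 18.3 CPM and 27.1 to 43.9 CPM, nearly all of it Cd4 (means of 14.7 and 31.8 CPM), the 1 tested, which was higher (1.12); the others had at most 15 fragments in any sample, with Cd3e at 34 fragments in all of vehicle and 18 in all of JHU083 and Cd3g at 37 and 65. Eosinophil markers summed to 3.68 to 10.6 CPM and 6.64 to 17.4 CPM, with Siglecf higher (0.89), and B cell markers to 2.72 to 3.77 CPM and 3.47 to 5.14 CPM, with Cd79b higher (0.51, edgeR adjusted p = 0.0498). Monocyte markers summed to 319.5 to 383 CPM and 293 to 524 CPM, with Chil3 higher (2.08); Plac8 (-0.73, edgeR adjusted p = 0.0664) and Ccr2 (0.14, edgeR adjusted p = 0.508) did not pass, and Ly6c2 was too low to test, at 47 and 21 fragments. Mitochondrial transcripts made up 1.53% to 2.09% of fragments in vehicle and 2.14% to 2.44% in JHU083. In 5 samples (3 vehicle, 2 JHU083) the loci Rn18s-rs5 and Gm42418 were listed at 0, so the value of each gene of the set that passed the test is also given within these 5 samples and within the other 5. The part of these differences in the results below was not tested. In sorted bulk samples, fewer cells of a type and less RNA per cell cannot be told apart.

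**Figure D1:**
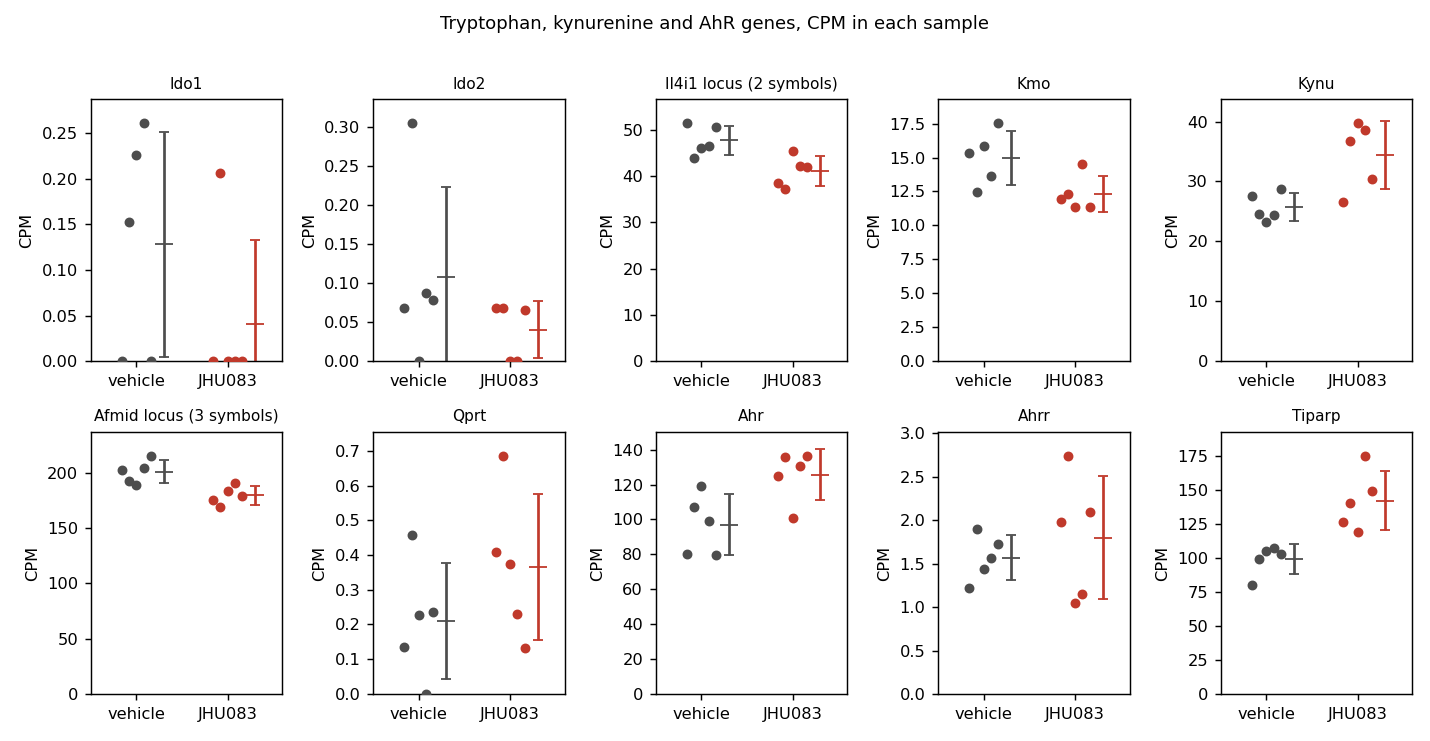
CPM (vertical axis, from 0) of each of the 10 genes in every sample, with 5 points per group and the group mean ± SD beside them. Tiparp is the gene whose groups do not overlap; Ido1, Ido2 and Qprt reach at most 0.685 CPM in any sample, and the Il4i1 and Afmid panels show loci that list further genes.

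Ido1 (chromosome 8, 24584136 to 24597009, minus strand, GRCm38) had 0, 2, 3, 3 and 0 fragments in vehicle samples 1 to 5 and 0, 3, 0, 0 and 0 in JHU083 samples 1 to 5. It was thus at 0 in 6 of 10 samples. Ido2, its neighbour on chromosome 8 (24531892 to 24576333, minus strand), had at most 4 fragments in any sample, with 7 in all of vehicle and 3 in all of JHU083. A level of 3 fragments corresponds to 0.196 to 0.261 CPM in these samples, so a difference in either gene was not detectable at this depth. Tdo2, the dioxygenase best known from liver, had at most 9 fragments in any sample and was also too low to test.

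Il4i1 could only be read together with Nup62, which encodes a nuclear pore protein. Both lie on the plus strand of chromosome 7, Nup62 at 44816088 to 44830812 and Il4i1 at 44816387 to 44840809, and the annotation gives them 97 shared exon bases, or 2.38% of the exon bases of Il4i1. The locus had 51.4, 44.0, 45.9, 46.6 and 50.6 CPM in vehicle samples 1 to 5 and 38.5, 37.1, 45.3, 42.1 and 42.0 CPM in JHU083 samples 1 to 5. The groups overlapped through JHU083 sample 3, and the other 4 JHU083 samples lay below every vehicle sample. Its log2 fold change was -0.22 ± 0.08 (SE, edgeR adjusted p = 0.0465), a value for both genes together. This call was narrow. It held without vehicle sample 2 (adjusted p = 0.0419) or JHU083 sample 3 (adjusted p = 0.0141) and was lost when any other single sample was left out, with adjusted p from 0.0538 to 0.118. With no filter on low counts or on FPKM (limma) the adjusted p was 0.131 and 0.118 to 0.119, and with the loci at 0 as a covariate it was 0.0602. Within the samples with the loci at 0 the value was -0.16 (adjusted p = 0.504), and within the others -0.27 (adjusted p = 0.143).

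Afmid, the formamidase, likewise shares its locus with Syngr2, which encodes a vesicle membrane protein, and with the read-through gene model Gm20708. Afmid (chromosome 11, 117825924 to 117839908) and Syngr2 (117809668 to 117814283) have no exon base in common, but Gm20708 shares 1566 exon bases with Afmid and 136 with Syngr2. The locus ranged from 189 to 215 CPM in vehicle and from 169 to 191 CPM in JHU083, so the groups overlapped slightly. Its log2 fold change of -0.16 ± 0.06 (SE) did not pass the threshold (edgeR adjusted p = 0.0589). Several alternatives placed it past the threshold, among them DESeq2 (-0.17, adjusted p = 0.0191) and scaling by library size alone (-0.24, adjusted p = 0.00471).

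Kmo encodes the mitochondrial monooxygenase that hydroxylates kynurenine, and Kynu encodes kynureninase, which cleaves kynurenine and its hydroxylated form. They stand at the main fork of the pathway; Kynu passed the test and Kmo did not. Kynu (chromosome 2, 43555329 to 43682715) had 27.5, 24.5, 23.3, 24.3 and 28.8 CPM in vehicle samples 1 to 5 and 26.6, 36.7, 39.7, 38.6 and 30.4 CPM in JHU083 samples 1 to 5. In all, 4 JHU083 samples lay above every vehicle sample, and JHU083 sample 1 lay within the vehicle range. Its log2 fold change was 0.42 ± 0.11 (SE, edgeR adjusted p = 0.0112). It was 0.36 within the samples with the loci at 0 (adjusted p = 0.262) and 0.47 within the others (adjusted p = 0.0417). The call held when any single sample was left out, with values from 0.37 to 0.50 and edgeR adjusted p from 0.00258 to 0.0320.

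Kmo (chromosome 1, 175620381 to 175662116) had 15.3, 12.5, 15.8, 13.6 and 17.5 CPM in vehicle and 11.9, 12.3, 11.3, 14.5 and 11.4 CPM in JHU083. In all, 4 JHU083 samples lay below every vehicle sample and JHU083 sample 4 lay among them. The log2 fold change was -0.28 ± 0.12 (SE) and did not pass the threshold (edgeR adjusted p = 0.0676). It was past the threshold without vehicle sample 2 (-0.35, adjusted p = 0.0386), without JHU083 sample 4 (-0.35, adjusted p = 0.0382) and with scaling by library size alone (-0.36, adjusted p = 0.0188).

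Qprt, the quinolinate phosphoribosyltransferase that feeds the pathway into NAD synthesis, had 14 fragments in the 5 vehicle samples and 26 in the 5 JHU083 samples, with 0 to 10 per sample. It was too low to compare.

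The other enzymes around tryptophan were taken from a list of 19 measured genes, of which 8 were abundant enough to test. Of these, 2 were higher and 3 lower in JHU083 (18.4% and 18.3% of all loci tested), and the median log2 fold change was -0.11. The largest difference on this list was in Haao, the dioxygenase that acts on hydroxyanthranilate, the product of Kynu on the hydroxylated branch. Haao had 5.77, 4.42, 3.17, 5.04 and 4.77 CPM in vehicle samples 1 to 5 and 0.614, 0.754, 1.49, 1.22 and 1.90 CPM in JHU083 samples 1 to 5. Every JHU083 sample lay below every vehicle sample, as was the case for 11.1% of all loci tested. The log2 fold change was -1.95 ± 0.28 (SE, edgeR adjusted p = 0.000157). Haao and the next gene of the route, Qprt, were thus both at low levels, while Kynu, 1 step before Haao, rose. The 8 tumour epithelial markers, 3 of 5 fibroblast markers and Pecam1 were lower in the same samples, and their part in the Haao value was not tested.

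Kyat1 encodes a transaminase that turns kynurenine into kynurenic acid, an AhR ligand. Kyat1 rose by 0.51 ± 0.14 on the log2 scale (SE, edgeR adjusted p = 0.0115), with means of 4.33 ± 0.0791 CPM (vehicle) and 6.18 ± 0.88 CPM (JHU083; SD, n = 5 each), with no overlap between the groups. Got2, a mitochondrial aspartate transaminase that can carry out the same step, went the other way, with a log2 difference of -0.37 ± 0.08 (SE, edgeR adjusted p = 0.00325) and means of 98.3 ± 8.74 CPM (vehicle) and 76.0 ± 6.16 CPM (JHU083; SD, n = 5 each). Its groups did not overlap either. Over all loci tested, 11.2% lay wholly higher in JHU083 and 11.1% wholly lower. Kyat3, a further transaminase of this step, had a log2 fold change of -0.35 that did not pass the test (edgeR adjusted p = 0.320). Maoa, the monoamine oxidase that breaks down serotonin and other amines, rose by 0.74 ± 0.13 on the log2 scale (SE, edgeR adjusted p = 0.000498), with means of 9.32 ± 1.28 CPM (vehicle) and 15.6 ± 1.97 CPM (JHU083; SD, n = 5 each). Wars, the cytosolic tryptophanyl-tRNA synthetase and a gene that interferon induces, fell by 0.29 on the log2 scale (edgeR adjusted p = 0.0133). Tph1 and Tph2, which start serotonin synthesis, had at most 16 and 1 fragments in any sample.

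**Figure D2:**
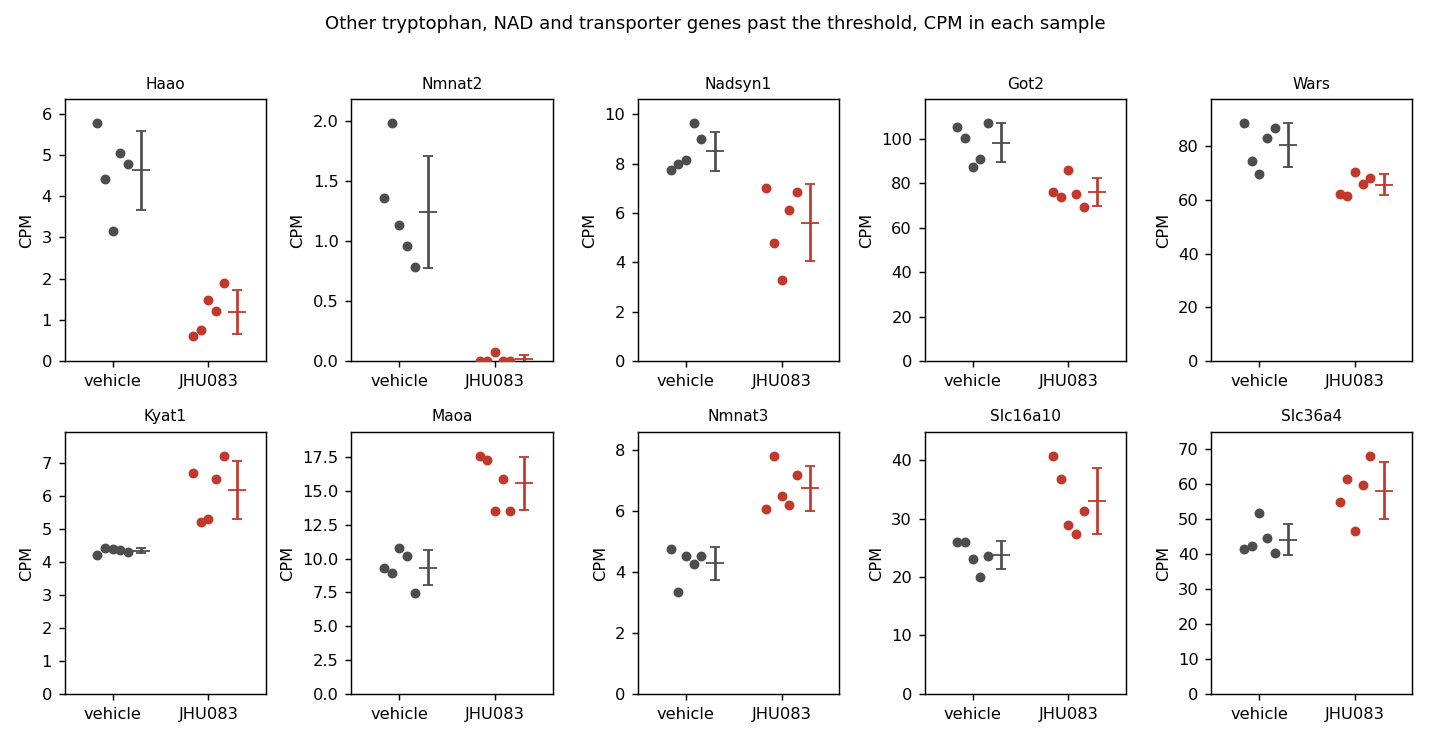
CPM (vertical axis, from 0) of 10 further tryptophan, NAD and transporter genes past the threshold, with 5 points per group and the group mean ± SD. Haao, Nmnat2, Nadsyn1 and Got2 lie lower in every JHU083 sample than in any vehicle sample, and Kyat1, Maoa, Nmnat3 and Slc16a10 lie higher. Of all loci tested, 11.1% lie lower in this way and 11.2% higher.

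NAD can be made from quinolinate, from nicotinic acid or from nicotinamide. Of 9 tested genes of these routes, 1 was higher and 2 were lower, with a median log2 fold change of -0.01. Over all loci tested, 36.7% passed in either direction. Nadsyn1, the NAD synthetase that takes its nitrogen from glutamine, fell, with a log2 difference of -0.59 ± 0.18 (SE, edgeR adjusted p = 0.0209) and means of 8.51 ± 0.79 CPM (vehicle) and 5.62 ± 1.58 CPM (JHU083; SD, n = 5 each). The groups did not overlap, although the call was lost without vehicle sample 4 (adjusted p = 0.0512) or JHU083 sample 2 (adjusted p = 0.0518). Nmnat3, which encodes the mitochondrial adenylyltransferase, rose by 0.65 ± 0.14 on the log2 scale (SE, edgeR adjusted p = 0.00311), and Nmnat1, the nuclear form, had a value of 0.04 that did not pass (edgeR adjusted p = 0.887).

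Nmnat2, the form best known from neurons, had 20, 26, 15, 11 and 10 fragments in vehicle samples 1 to 5 and 1 fragment in all 5 JHU083 samples together. The single JHU083 fragment was in sample 3. The ratio of vehicle to JHU083 was 94.0 per fragment sequenced, with an exact binomial 95% interval of 16.4 to 3759 that covers counting error only, and the edgeR fit gave -5.76 ± 0.64 on the log2 scale (SE, adjusted p = 2.01e-05), or 54.0-fold lower. Without JHU083 sample 3 the fitted value was -7.10, and without any other single sample it lay between -5.89 and -5.52; such a fit depends on the prior count. The gene was low even in vehicle, at 1.24 ± 0.46 CPM (SD, n = 5), and it was lower in the same samples as the 8 tumour epithelial markers, 3 of 5 fibroblast markers and Pecam1, whose part in it was not tested. Nampt, the rate-limiting enzyme of salvage from nicotinamide, did not pass, at 374 ± 26.1 and 400.2 ± 36.8 CPM (SD, n = 5, edgeR adjusted p = 0.342).

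Of 8 measured transporter genes for tryptophan or kynurenine, 5 could be tested, and 2 rose, beside 18.4% of all loci tested. Slc16a10, an aromatic amino acid carrier, rose by 0.47 ± 0.12 on the log2 scale (SE, edgeR adjusted p = 0.00643), with means of 23.8 ± 2.45 CPM (vehicle) and 33.0 ± 5.60 CPM (JHU083; SD, n = 5 each). Slc36a4, a carrier of tryptophan and proline, had a log2 fold change of 0.40 ± 0.10 (SE, edgeR adjusted p = 0.00868). Slc3a2, the heavy chain of the large amino acid exchangers, had 556 ± 37.4 and 627 ± 57.0 CPM (SD, n = 5) and did not pass (edgeR adjusted p = 0.0990).

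**Figure D3:**
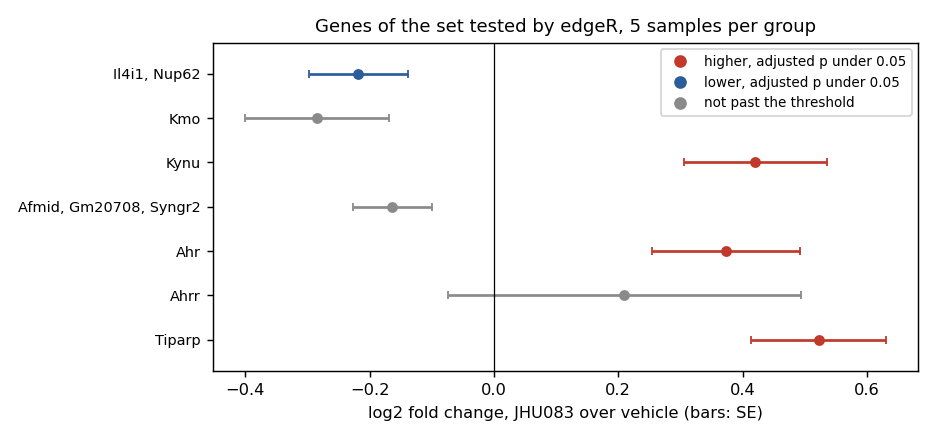
Log2 fold change of JHU083 over vehicle (horizontal axis, bars are SE) of the 7 genes or loci of the set that were tested by edgeR. Tiparp, Kynu and Ahr lie above 0 and passed the threshold, and the Il4i1 and Nup62 locus lies below 0 and passed.

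Ahr (chromosome 12, 35497974 to 35535038, minus strand) had 80.2, 107, 119, 99.2 and 79.4 CPM in vehicle samples 1 to 5. It had 124.9, 136, 101, 131 and 136 CPM in JHU083 samples 1 to 5. In all, 4 JHU083 samples lay above every vehicle sample, and JHU083 sample 3 lay inside the vehicle range. The log2 fold change was 0.37 ± 0.12 (SE, edgeR adjusted p = 0.0247). The call was lost without vehicle sample 1, 4 or 5 or JHU083 sample 2, 4 or 5 (edgeR adjusted p from 0.0502 to 0.0661) and with scaling by library size alone (0.29, adjusted p = 0.0930), as it was on FPKM (limma adjusted p of 0.138 and 0.140). Within the samples with the loci at 0 the value was 0.25 (adjusted p = 0.371), and within the others 0.43 (adjusted p = 0.0631).

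Tiparp encodes an ADP-ribosyltransferase that AhR induces and that in turn represses AhR. Tiparp (chromosome 3, 65528410 to 65555518, plus strand) had 79.9, 98.8, 105, 108 and 103 CPM in vehicle samples 1 to 5. It had 126, 140.2, 119, 175 and 149 CPM in JHU083 samples 1 to 5. Every JHU083 sample lay above every vehicle sample, as was the case for 11.2% of all loci tested. The log2 fold change was 0.52 ± 0.11 (SE, edgeR adjusted p = 0.00215), and it stayed past the threshold when any single sample was left out (0.44 to 0.58). It was 0.25 within the samples with the loci at 0 (adjusted p = 0.189) and 0.74 within the others (adjusted p = 0.00490). A test of the difference between these values, added after they were seen, gave -0.49 ± 0.19 (SE) with an unadjusted p of 0.0218 and an edgeR adjusted p of 0.966.

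Ahrr encodes the AhR repressor, which competes with Ahr for Arnt. Ahrr (chromosome 13, 74211118 to 74292331, minus strand) was read at low depth, with 14 to 40 fragments per sample. It had 1.22, 1.90, 1.43, 1.56 and 1.72 CPM in vehicle and 1.98, 2.74, 1.04, 1.15 and 2.095 CPM in JHU083. Of the JHU083 samples, 3 lay above every vehicle sample and the other 2 below every one. The log2 fold change of 0.21 ± 0.28 (SE) did not pass (edgeR adjusted p = 0.591). JHU083 sample 3 was thus the lowest of its group for Ahr, Ahrr and Tiparp, while for Kynu it was the highest.

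AhR and Arnt bind a core of the letters GCGTG. The start regions of Ahrr and Tiparp are shown because both genes are known AhR targets, of which Tiparp passed the test here and Ahrr did not; they are RefSeq sequences of GRCm38.p6 from 250 bases before to 50 bases after the gene start, 5′ to 3′ in the direction of transcription, with GCGTG or its complement CACGC in capitals.
Ahrr, chr13:74292282-74292581, minus strand: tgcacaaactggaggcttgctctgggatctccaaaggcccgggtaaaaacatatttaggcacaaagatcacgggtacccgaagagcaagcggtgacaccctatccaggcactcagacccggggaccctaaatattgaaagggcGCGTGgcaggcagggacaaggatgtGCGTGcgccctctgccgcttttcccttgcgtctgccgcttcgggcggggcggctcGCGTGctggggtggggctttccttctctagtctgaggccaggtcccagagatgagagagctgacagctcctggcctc
Tiparp, chr3:65528197-65528496, plus strand: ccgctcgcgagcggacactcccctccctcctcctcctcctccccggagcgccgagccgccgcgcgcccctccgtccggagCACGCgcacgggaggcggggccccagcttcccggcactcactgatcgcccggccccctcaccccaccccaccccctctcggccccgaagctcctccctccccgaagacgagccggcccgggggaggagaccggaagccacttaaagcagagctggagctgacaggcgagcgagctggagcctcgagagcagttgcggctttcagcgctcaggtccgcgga
The Ahrr window holds the core 3 times and the Tiparp window once. The table held start regions for 6 of the 10 genes (Kmo, Tiparp, Il4i1, Qprt, Afmid and Ahrr), and these 2 were the ones with a match on either strand. Of all 32851 start regions of the same length, 32.4% hold at least 1 match, so a single match such as that of Tiparp is common. The gamma-activated site TTCNNNGAA, the same on both strands, was found in 1 of the 6 windows, that of Qprt, against 8.30% of all start regions. A match describes the letters and not binding.

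Most of the classical AhR targets were barely detected. Of 10 listed target genes, 7 were too low to test. Cyp1a1, the enzyme most often used as a readout of AhR activity, had at most 5 fragments in any sample, Cyp1b1 at most 17 and the quinone reductase gene Nqo1 at most 16. Entpd1, which encodes the ectonucleotidase CD39, rose by 0.27 ± 0.07 on the log2 scale (SE, edgeR adjusted p = 0.0103), with means of 189 ± 12.6 CPM (vehicle) and 227 ± 15.6 CPM (JHU083; SD, n = 5 each). That call was lost with scaling by library size alone (0.19, adjusted p = 0.0662). Ugt1a6a and Ugt1a6b belong to a locus that lists 9 glucuronosyltransferase symbols, which had a log2 fold change of 0.05 (edgeR adjusted p = 0.634).

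Among 8 tested partners and chaperones of AhR, 3 were higher and 2 lower, beside 18.4% and 18.3% of all loci tested. The coactivator genes Ncoa1 and Ncoa2 and the kinase gene Src, whose protein sits in the cytosolic AhR complex, rose by 0.54, 0.45 and 0.32 on the log2 scale (edgeR adjusted p of 0.0144, 0.0152 and 0.00387). Scaling by library size alone ended the call of Ncoa2 (0.37, adjusted p = 0.0511). The chaperone genes Hsp90ab1 and Ptges3, which hold unliganded AhR, fell by 0.39 and 0.33 (edgeR adjusted p of 0.00452 and 0.00706). Arnt had 55.8 ± 5.60 and 61.8 ± 4.35 CPM (SD, n = 5) and did not pass (edgeR adjusted p = 0.184).

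Interferon-gamma is the main inducer of Ido1, so its pathway was read beside it. Of 10 tested genes, 5 were lower and 2 higher (18.3% and 18.4% of all loci tested), and the median log2 fold change was -0.47. Irf1, a transcription factor of this response, fell, with a log2 difference of -0.93 ± 0.10 (SE, edgeR adjusted p = 1.58e-05) and means of 182 ± 17.1 CPM (vehicle) and 95.1 ± 14.0 CPM (JHU083; SD, n = 5 each). Cxcl9, Cxcl10, Socs1 and Gbp2 fell by 1.64, 1.79, 1.35 and 1.07 (the highest edgeR adjusted p, that of Cxcl9, was 0.000932). Ifngr1, the receptor chain that binds the ligand, and the kinase gene Jak1 rose by 0.53 and 0.40 (edgeR adjusted p of 0.000103 and 0.00133). Ifng itself had at most 5 fragments in any sample. Ido1 was at or near 0 in vehicle as well, so no fall of Ido1 could be seen beside these genes.

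**Figure D4:**
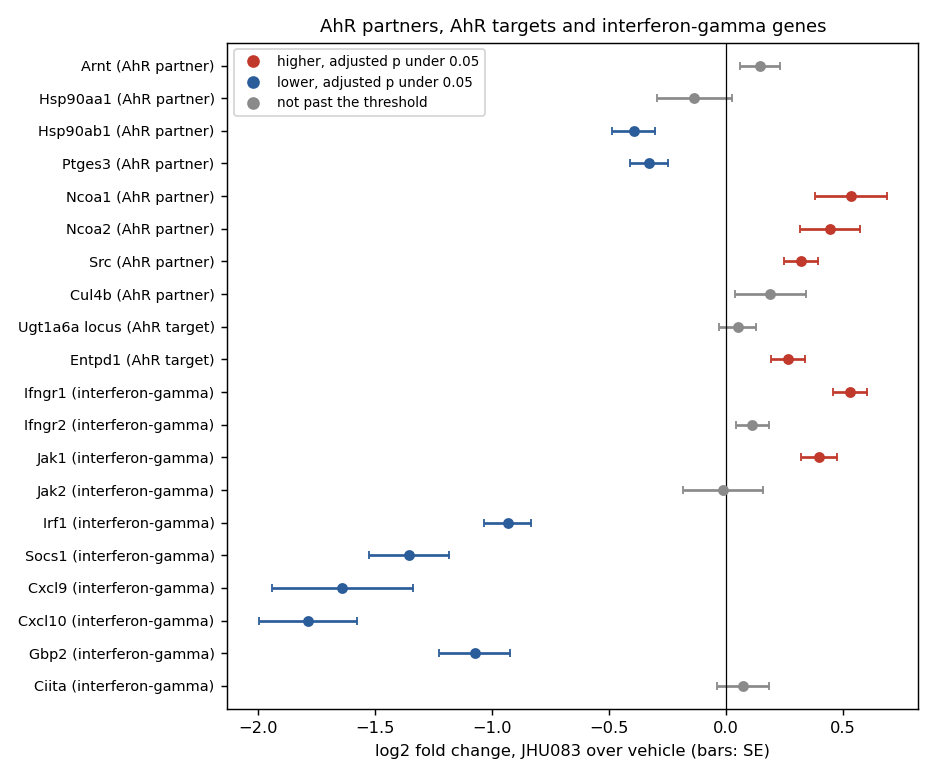
Log2 fold change of JHU083 over vehicle (horizontal axis, bars are SE) of the tested AhR partners, AhR targets and interferon-gamma genes, from 5 samples per group. The AhR partners and targets lie between -0.39 and 0.54, while Cxcl10 and Cxcl9 reach -1.79 and -1.64.

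Levels of different genes were compared per length, on the deposited FPKM (fragments scaled to library size and transcript length). In vehicle the order by median was the Afmid locus (144 FPKM), Tiparp (25.0), the Il4i1 locus (18.0), Ahr (17.3), Kynu (12.4), Kmo (5.70), Ahrr (0.372), Qprt (0.114), Ido1 (0.105) and Ido2 (0.0277). Tiparp and the Il4i1 locus overlapped only through the Tiparp value of vehicle sample 1 (18.6), and the other 4 Tiparp values (24.7 to 25.2) lay above every value of the Il4i1 locus (up to 19.7). The ranges of the Il4i1 locus and Ahr overlapped, as did those of Qprt, Ido1 and Ido2, so these neighbours did not differ beyond their spread. Ahr, Kynu, Kmo and Ahrr were each separated from the next gene down. In JHU083 the medians were 33.4 for Tiparp, 24.1 for Ahr, 18.0 for Kynu and 15.8 for the Il4i1 locus, each overlapping its neighbour in range, and 4.49 for Kmo, which stood apart. The Afmid locus value includes Syngr2, so it gives no level of Afmid itself.

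**Figure D5:**
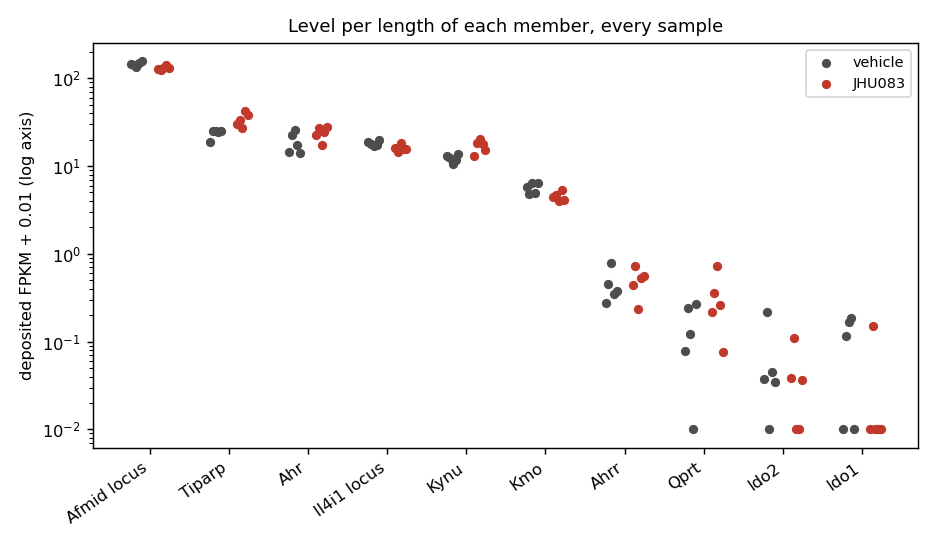
Deposited FPKM plus 0.01 (vertical log axis) of each of the 10 genes in all 10 samples, by group, ordered by median. Ahr, Tiparp, Kynu and the Il4i1 locus lie between 10.5 and 42.2 FPKM in every sample, while Ido1 and Ido2 do not exceed 0.208 FPKM; points at 0.01 are samples listed at 0.

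For likeness, all loci listing 1 symbol and averaging a log2 CPM of at least 2 were ranked by Pearson's r with log2 CPM of Ahr, Kynu and the Il4i1 locus over the 10 samples. These values include the difference between the groups and share the same libraries, so they are descriptions. The pattern of Ahr was most like those of Fam102b (r = 0.99), Jmjd1c (0.98) and Tmem30a (0.98). Kynu was most like Rufy1 (0.97), Ttc33 (0.96) and Wfdc17 (0.95), and the Il4i1 locus was most like Bysl, Psmd4 and Mical1 (each 0.97).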

How the data were processed

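RNA from 10 samples of sorted macrophages was sequenced as paired-end poly(A) libraries. The submitters' processing notes name bcl2fastq 2.17.1.14, FastQC 0.11.2, TopHat2 2.1.1 and GRCm38; the counting program and annotation are not given in the sources used here. Per the file headers the authors deposited raw counts, but these expected counts are whole multiples of a step per sample (0.888 to 1.17; at least 99.97% of values under 30 were within 0.05 of a whole multiple), so each was divided by its step and rounded. The column the authors deposited as normalized was taken from its values to be FPKM and used for levels and as an alternative.

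Members are rows whose symbols, split at commas, hold the name. Loci were filtered with filterByExpr, scaled by TMM and tested with edgeR 4.0.16 (quasi-likelihood, no covariate, Benjamini-Hochberg over 12501 loci, R 4.3.3); the SE is the absolute log2 fold change over the square root of F. CPM use TMM-scaled totals. All adjusted p-values are from this test unless named. On simulated counts for 12501 loci of this comparison, with 200 genes changed, the test recovered 82.5% of changes of 1 and 40.0% of changes of 0.5 on the log2 scale. In the data 36.7% of loci were called, a larger share than was changed in the simulation. The adjustment was thus stricter in the simulation, and these shares do not give the recovery in the data. Depth ran from 11147870 to 15740701 fragments; 3 fragments are 0.196 to 0.261 CPM.

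Genes were named by rule: all members, and of each list at least the 3 with the lowest p. The members and lists were chosen with earlier results of these data known, and 2 listed genes are not reported here. Positions are GENCODE M21 (GRCm38), start regions RefSeq. Alternatives were DESeq2 1.42.0, limma 3.58.1 (voom with sample weights, and FPKM with pseudocounts of 0.1 and 1), other scalings and filters, the rounded deposited values, single samples left out, a replicate block, and the status at Rn18s-rs5 and Gm42418 as a covariate or subset.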

Additional observations from a re-analysis of the deposited data

Results flagged for a closer look

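Of 14 groups of 5 values examined (7 tested genes in both groups), 1 held a sample at a distance from the rest, and chance gives about 1 in 20 groups. Vehicle sample 1 had the lowest Tiparp level of its group, at 6.32 log2 CPM, with the other 4 samples between 6.63 and 6.75. Without it, the log2 fold change of Tiparp was 0.45 (edgeR adjusted p = 0.00573).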

How the results depend on the processing

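Across 34 named genes and 23 alternatives, 781 values were compared with those reported: 707 kept direction and side of the threshold, 59 lost the call, 12 gained it and 3, none past the threshold, changed sign. These 3 were Ahrr (-0.19) and Nampt (-0.0416) within the samples at 0, and Ugt1a6a (-0.026) with library size alone. A fit to the 5 samples with Rn18s-rs5 and Gm42418 at 0 called 532 loci up with JHU083 and 586 down. It called 0 genes of the set, and 2 up and 7 down on the 6 lists. A fit to the other 5 samples called 1334 loci up and 1518 down. Of the set, this second fit called 2 genes up and 0 down, and on the lists 6 up and 10 down. The part of the smaller sample number in these counts was not tested. With the replicate block, 1 gene of the set was higher (Tiparp, adjusted p = 0.00395) and 0 lower; Kynu (0.41, adjusted p = 0.0504) and Ahr (0.38, adjusted p = 0.0600) missed the threshold. Of same-numbered pairs, 0 of 5 correlated over 0.1 (mean -0.35), and 0 samples correlated best with their own number. In every such pair, 1 sample had Rn18s-rs5 and Gm42418 at 0 and the other did not. Vehicle and JHU083 samples of like status all had a positive r, and those of unlike status a negative r. These values therefore cannot tell whether the numbers pair the samples. The count of lower genes in the set was 3 with library size alone, 2 with DESeq2, limma-voom, the stricter filter and rounded values, and 0 with no filter, FPKM at either pseudocount and the covariate. Leaving out 1 sample, the set had 2 to 3 higher and 0 to 2 lower. The cause was not tested. Ido1, Ido2 and Qprt had too few fragments to compare.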
